A study of Mus musculus with 10 samples.

Results

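Notch signalling in bone endothelial cells (ECs) was followed through 10 genes: the receptors Notch1, Notch2 and Notch4, the ligands Dll4, Dll1, Jag1 and Jag2, and the target genes Hey1, Hey2 and Hes1. They were picked by name from one pathway, with earlier results of these data known, and are 10 of the 22829 genes measured. All 10 had UMIs (unique molecular identifiers, each marking 1 captured RNA molecule) in endothelial cells.

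The cells came from femur and tibia of C57BL/6 mice that carry the Cdh5-mTnG reporter, in which a Cdh5 promoter drives fluorescent proteins in endothelium. Marrow and bone were digested with collagenase, depleted of lineage-positive haematopoietic cells and sorted for GFP and tdTomato, and 10x Chromium 3′ libraries were sequenced. The 10 libraries form 5 groups of 2: juvenile (3 weeks, male and female), adult (12 weeks, female), aged (75 weeks, female), PTH (parathyroid hormone, 12 weeks, female) and alendronate (a bisphosphonate, 12 weeks, female). Animals were pooled and the experiment was done once per group, so that differences between the 2 libraries within a group may be technical and does not measure variation between mice. Since the juvenile mice were of both sexes, age and sex cannot be told apart in that comparison. All 4 comparisons between groups share the 2 untreated adult libraries.

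The libraries held 10653583 to 28419323 UMIs, and 46282 of 47466 cells passed the filter of 500 to 6000 genes and under 25% mitochondrial UMIs, with 3075 to 5084 UMIs per cell at the median of a library. The aged libraries stood apart before any test. They alone listed genes whose symbols start with U (1.52 and 1.53% of their UMIs), their median mitochondrial share was 2.34 and 2.45% against 1.15 to 1.43% elsewhere, and they shared 3 or 4 cell barcodes with any other library, where the other pairs shared 10 to 88. How the aged libraries were made or processed and the age of the mice therefore cannot be told apart, and class results are also given without them.

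Endothelial cells were grouped by markers that are not Notch genes. Cells were clustered with the 10 genes and the other genes of the pathway left out of the variable features, and 43584 of the cells lay in endothelial clusters. Clusters named by their markers gave 19630 sinusoidal-like cells (Stab2, 1733 CPM, counts per 1000000 UMIs, against 80.6 to 281.2 in the other 3 classes), 5478 arterial-like cells (Gja4, 1273 against 13.5 to 82.67 CPM), 8324 metaphyseal-like cells (Ramp3, 497.0 against 27.87 to 54.85 CPM, and Aplnr, 1397 CPM) and 2932 type R-like cells (Timp4, 1191 against 3.816 to 19.94 CPM, and Aqp7, 558.6 CPM). Cdh5 was present in all 4, at 1060 to 1587 CPM, and Ptprc, the pan-leukocyte CD45 gene, was at 0.1439 to 0.4601 CPM. Sinusoidal vessels drain the marrow, arterial endothelium lines the feeding vessels, metaphyseal (type H) capillaries lie near the growth plate, and type R is the name used for capillaries at remodelling bone. Of the metaphyseal-like cells 3681, and of the sinusoidal-like cells 2886, lay in clusters of shallow cells. The type R-like class was small in some libraries, with 49 and 35 cells in the juvenile, 40 in PTH replicate 1 and 238 to 661 in the other libraries.

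Notch receptors are single-pass membrane proteins that are activated by Delta-like (Dll) and Jagged (Jag) ligands on a neighbouring cell. Ligand binding exposes the receptor to cleavage by ADAM10 and then by gamma-secretase, and the freed intracellular part enters the nucleus and joins the DNA-binding protein RBPJ and Mastermind-like co-activators at target genes, among them those of the Hes and Hey repressor families. In blood vessels the pathway is best known for arterial identity and for limiting sprouting downstream of Dll4.

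The stretches upstream of 3 of these genes are shown because the genes stand for the 3 patterns described below: Dll4, a ligand highest in arterial-like cells, Hey2, a target with most of its UMIs there, and Notch2, a receptor highest in sinusoidal-like cells. Each is 200 bases of the coding strand in GRCm38.p6 from RefSeq, from base 250 to base 51 before the annotated start, with capitals marking the core letters of the RBPJ motif, TGGGAA or its reverse complement TTCCCA. The Dll4 stretch is chr2:119325534-119325733 on the plus strand, the Notch2 stretch chr3:98013288-98013487 on the plus strand and the Hey2 stretch chr10:30842834-30843033 on the minus strand.
Dll4: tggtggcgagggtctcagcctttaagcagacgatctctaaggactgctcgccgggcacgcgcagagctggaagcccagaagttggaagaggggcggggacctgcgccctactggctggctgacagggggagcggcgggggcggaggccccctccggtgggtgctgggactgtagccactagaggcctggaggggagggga
Notch2: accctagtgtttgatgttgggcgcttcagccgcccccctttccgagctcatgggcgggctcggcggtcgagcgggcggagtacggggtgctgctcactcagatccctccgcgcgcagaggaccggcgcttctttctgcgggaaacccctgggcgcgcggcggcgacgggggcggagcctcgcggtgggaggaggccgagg
Hey2: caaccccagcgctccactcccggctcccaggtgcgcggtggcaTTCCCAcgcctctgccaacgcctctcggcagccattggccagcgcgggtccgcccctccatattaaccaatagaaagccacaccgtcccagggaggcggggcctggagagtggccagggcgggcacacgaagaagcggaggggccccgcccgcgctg
The core occurred in the 250 bases before the start of 1 of the 8 members with a promoter in the set used, Hey2, at position -207, and in 21.6% of the 32851 mouse promoters of that length. The targets Hey1 and Hes1 had no promoter in that set and were not searched. Its longer form TGTGGGAA (reverse complement TTCCCACA, which holds the shorter core) was found in none of the 8 and in 1.46% of all promoters. No match says only that these letters were not in this window.

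Levels below are CPM of the UMIs summed over the cells of 1 class in 1 library, with library sizes scaled by TMM over the 40 sums. Levels of haematopoietic-like cells, of marker lists and of single markers are CPM of plain library totals instead. Since 3′ reads of genes of different length are not on one scale, levels are compared between classes and groups for the same gene and never between genes. The SD over the 10 libraries holds the differences between ages and treatments. Between classes a gene was called when edgeR's quasi-likelihood test with the library as a block gave a Benjamini-Hochberg adjusted p under 0.05 over the 11137 genes tested and the log2 fold change was over 1 in size.

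Each class was set against the average of the remaining 3 classes (the other-class mean). In arterial-like cells 6 of the 10 genes were called higher and 0 lower, where 6.47% of all genes tested were called higher and 6.01% lower (12.5% in all). Among these 6 is Hey2, which passed the filter on low counts only through its arterial-like sums. In sinusoidal-like cells 1 gene was called higher and 5 lower, beside 8.19% and 8.14% of all genes (16.3% in all). Metaphyseal-like cells had 0 called higher and 2 lower, beside 4.6% and 4.12% (8.72% in all), and type R-like cells had 1 of each, beside 6.05% and 8.03% (14.1% in all).

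**Figure D1:**
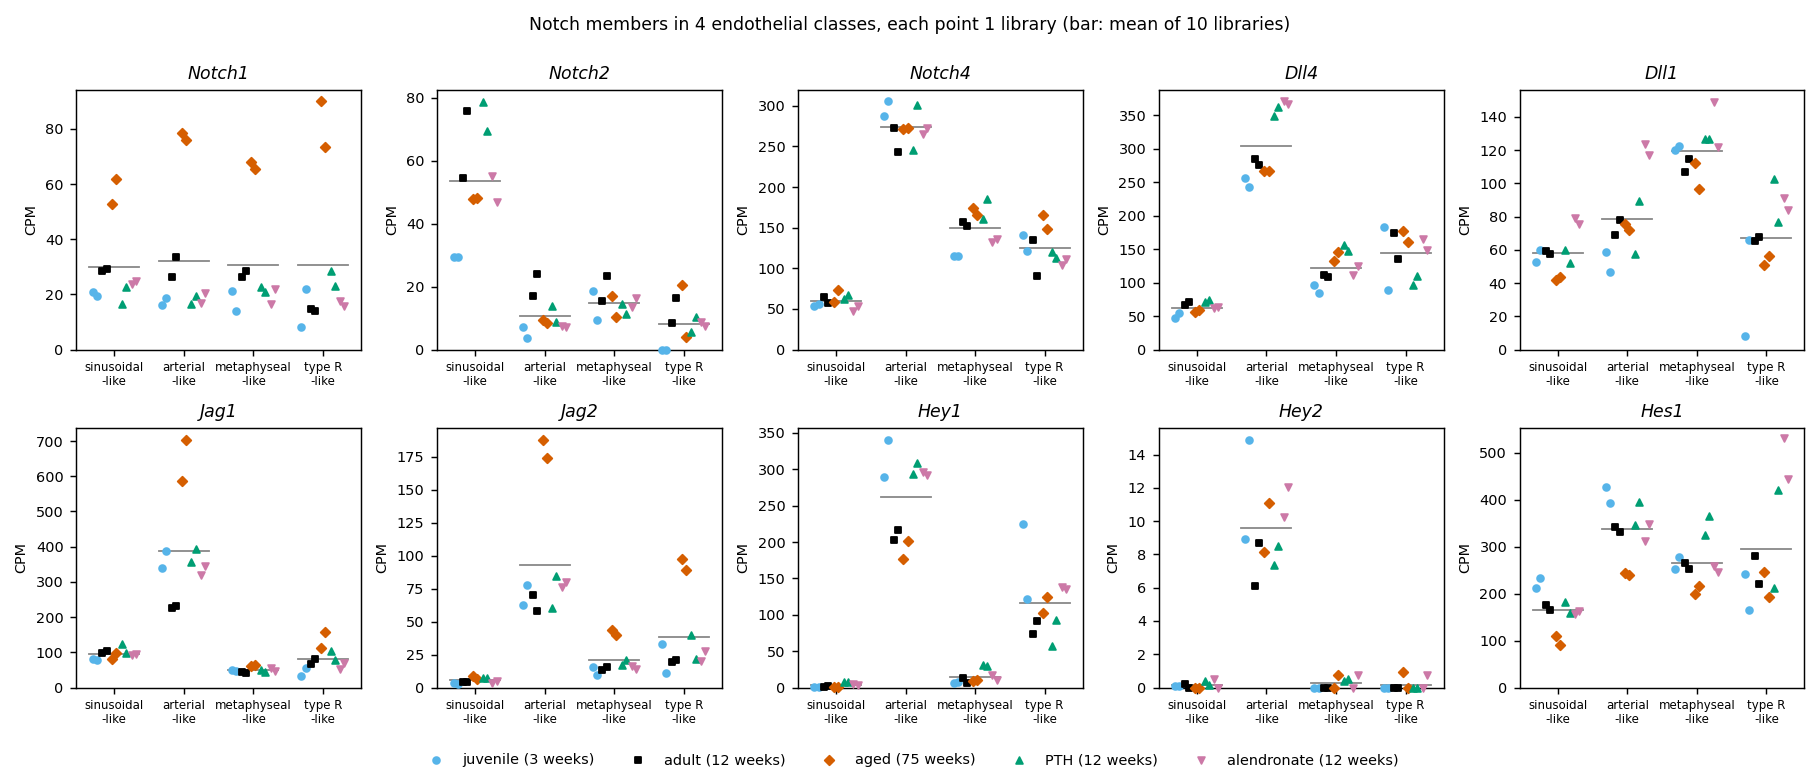
Level of each of the 10 genes (CPM, linear axis from 0) in the 4 endothelial classes, with 1 point per library, marked by group, and a grey bar at the mean of the 10 libraries. The arterial-like points of Notch4, Dll4, Jag1, Jag2, Hey1 and Hey2 lay above those of the other classes in all 10 libraries, as did the sinusoidal-like points of Notch2 and the metaphyseal-like points of Dll1. The share of all genes with the same class highest in all 10 libraries was not counted. Hey2 passed the filter on low counts only through its arterial-like sums. For Hey2 the type R-like points at 0 allow levels of up to 25 and 33.1 CPM in the juvenile libraries.

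Among the receptors, Notch4, whose expression is largely endothelial, ran from 243.4 to 306.3 CPM in arterial-like cells, with a median of 272.6 CPM. It ran from 115.2 to 185.6 CPM in metaphyseal-like cells (median 154.3 CPM), from 90.85 to 165.9 CPM in type R-like cells (median 120.6 CPM) and from 47.51 to 72.75 CPM in sinusoidal-like cells (median 57.37 CPM). The arterial-like range did not overlap any other, and the metaphyseal-like and type R-like ranges overlapped over most of their width. The arterial-like excess over the other-class mean was 1.41 ± 0.05 on the log2 scale (SE; adjusted p = 5.40e-27), and the sinusoidal-like deficit was -1.53 ± 0.06 (adjusted p = 7.84e-27). Metaphyseal-like and type R-like cells, neighbours in this order, differed by -0.27 ± 0.08 (type R against metaphyseal, adjusted p = 5.10e-03), which is under the limit on fold.

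Notch2 was instead highest in sinusoidal-like cells. In sinusoidal-like cells it lay between 29.41 and 78.48 CPM (median 51.32 CPM), and no library of another class came above 24.14 CPM. Medians were 14.80 CPM in metaphyseal-like, 8.596 CPM in arterial-like and 7.970 CPM in type R-like cells, and these 3 ranges overlapped. Sinusoidal-like cells exceeded the other-class mean by 2.21 ± 0.12 (adjusted p = 3.33e-18), and exceeded arterial-like cells in all 10 libraries, with arterial against sinusoidal at -2.36 ± 0.16 (adjusted p = 2.41e-15). Type R-like cells were lower than the other-class mean by -1.01 ± 0.25 (adjusted p = 1.07e-03), a value so near the limit on fold that leaving out any 1 of 8 libraries (both juvenile, both adult, both alendronate, aged replicate 2 or PTH replicate 1) put it at -0.91 to -0.997 and under the limit. Notch2 was also present in haematopoietic-like cells, where 10.2% of cells had a UMI after thinning. The haematopoietic marker list was at 44.0 to 50.1 CPM in adult sinusoidal-like and 43.2 to 47.7 CPM in adult arterial-like cells in the same libraries, which overlap.

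Notch1, the other receptor, showed no such order. Its means were 30.1 ± 15.0 CPM in sinusoidal-like, 32.2 ± 24.3 CPM in arterial-like, 30.6 ± 19.5 CPM in metaphyseal-like and 30.8 ± 27.7 CPM in type R-like cells (SD, n = 10 libraries). The 10 contrasts between classes gave log2 fold changes of -0.06 to 0.03, with standard errors of 0.08 to 0.14. The wide SD came from the 75-week libraries, described below. Within groups the place of type R-like cells varied, and no test of it was made. In the adult libraries they were lowest, at 14.79 and 13.98 CPM against 26.13 to 33.53 CPM in the other classes. Under PTH they were highest, at 28.54 and 23.12 against 16.42 to 22.84 CPM. In the aged libraries they were at 89.95 and 73.45 against 52.93 to 78.48 CPM, and in the juvenile and alendronate libraries they overlapped the other classes.

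The 4 ligands had 3 different orders. Dll4, the Delta-like ligand of arteries and tip cells, ran from 243.2 to 370.9 CPM in arterial-like cells (median 279.6 CPM), from 88.27 to 183.2 CPM in type R-like, from 84.10 to 155.6 CPM in metaphyseal-like and from 46.70 to 73.79 CPM in sinusoidal-like cells. Both the arterial-like and the sinusoidal-like ranges stood clear of all others. The arterial-like excess was 1.55 ± 0.07 (adjusted p = 4.80e-22) and the sinusoidal-like deficit -1.48 ± 0.08 (adjusted p = 4.00e-20). Type R-like and metaphyseal-like cells lay side by side, at 0.27 ± 0.10 (adjusted p = 2.91e-02).

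Dll1, a second Delta-like ligand, was instead highest of the 4 classes in metaphyseal-like cells in all 10 libraries. There it ran from 96.67 to 149.1 CPM (median 121.0 CPM), against 46.41 to 124.0 CPM in arterial-like, 8.325 to 102.7 CPM in type R-like and 41.56 to 78.93 CPM in sinusoidal-like cells. The excess over the other-class mean was 0.82 ± 0.07 (adjusted p = 4.39e-13), under the limit of 1, and only the contrast with sinusoidal-like cells passed it, at 1.05 ± 0.08 (adjusted p = 7.15e-15).

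The Jagged ligands were both highest in arterial-like cells but differed in the rest of the order. Jag1 lay between 224.9 and 703.1 CPM in arterial-like cells (median 351.0 CPM), and no other class exceeded 156.8 CPM. Sinusoidal-like cells came next with type R-like cells, at medians of 96.14 and 74.00 CPM, which did not differ past the threshold over all libraries (type R against sinusoidal -0.23 ± 0.17, adjusted p = 0.237). The direction was not the same in all groups. In both aged libraries type R-like cells were higher, at 113.4 and 156.8 against 81.03 and 98.18 CPM. In each library of the other groups they were lower, as in the adult at 67.60 and 81.53 against 99.07 and 103.1 CPM. Metaphyseal-like cells were lowest, with a median of 49.46 CPM and a difference from the other-class mean of -1.5 ± 0.12 (adjusted p = 1.68e-11). Jag2 ran from 57.67 to 187.3 CPM in arterial-like cells and from 2.803 to 8.822 CPM in sinusoidal-like cells, with type R-like (11.03 to 97.45 CPM) and metaphyseal-like cells (9.271 to 43.83 CPM) between them. Arterial-like cells exceeded sinusoidal-like cells by 4.07 ± 0.12 (adjusted p = 4.17e-31). The sinusoidal-like levels of Jag2 lay within the 0 to 10.19 CPM of haematopoietic-like cells and are not read as expression, so that this fold is against the background.

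Of the targets, Hey1, a transcriptional repressor, had a wide range over the classes. It ran from 176.9 to 339.7 CPM in arterial-like cells (median 290.5 CPM), from 57.08 to 224.8 CPM in type R-like, from 6.667 to 31.36 CPM in metaphyseal-like and from 0.7552 to 7.035 CPM in sinusoidal-like cells. The arterial-like value was the highest in each library and the type R-like value the next, while the metaphyseal-like and sinusoidal-like ranges touched. Hey1 was the one gene called higher in type R-like cells (2.43 ± 0.23 over the other-class mean, adjusted p = 3.05e-10), and the one gene called between type R-like and metaphyseal-like cells (3.01 ± 0.27, adjusted p = 1.59e-10), where 15.9% of all genes were called. The arterial-like excess was 3.99 ± 0.16 (adjusted p = 9.01e-19). The sinusoidal-like levels are not read as expression, since they lay within the 0 to 13.9 CPM of Hey1 in haematopoietic-like cells, which are not endothelial. Of the 10 metaphyseal-like values 7 lay within that range too, so that folds of Hey1 against metaphyseal-like cells are against a level near the background.

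Hey2, a close relative of Hey1, was sparse. Of 271 UMIs in all cells, 225 lay in endothelial cells, and the 208 in the 4 classes fell as 187 in arterial-like, 10 in sinusoidal-like, 9 in metaphyseal-like and 2 in type R-like cells. Arterial-like libraries lay between 6.078 and 14.85 CPM (median 8.816 CPM), and no sum of another class exceeded 0.9370 CPM. A type R-like sum without a UMI allows up to 25 and 33.1 CPM in the juvenile, 17.1 CPM in PTH replicate 1 and 6.34 CPM in adult replicate 1. These limits lie above the arterial-like values of the same libraries, so that no order was detectable there. The fitted excess of 5.17 ± 0.28 depends on how counts near 0 are smoothed, since 18 of the 30 sums of the other classes held no UMI. Hey2 passed the filter on low counts only through its arterial-like sums, so that its call is not read as support.

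Hes1, a target shared by many tissues, was the flattest of the targets. Its medians were 343.9 CPM in arterial-like, 255.8 CPM in metaphyseal-like, 243.4 CPM in type R-like and 164.2 CPM in sinusoidal-like cells, and of the 4 classes it was highest in arterial-like cells in 6 libraries and in type R-like cells in 4. Only arterial against sinusoidal passed the limit (1.04 ± 0.12, adjusted p = 1.42e-08).

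Between pairs of classes 30 of 60 differences were called, among them those of Hey2, which passed the filter on low counts only through its arterial-like sums. Arterial-like and sinusoidal-like cells differed in 8 of the 10 genes, 7 higher and 1 lower in arterial-like cells, where 9.86% of all genes were called higher and 10.0% lower (19.9% in all). Type R-like and arterial-like cells differed in 6, all lower in type R-like cells, beside 4.59% of all genes higher and 6.29% lower (10.9% in all). Metaphyseal-like and arterial-like cells differed in 5, all lower in metaphyseal-like cells, beside 7.34% of all genes in each direction (14.7% in all). Metaphyseal-like against sinusoidal-like cells gave 4 higher and 1 lower, beside 5.83% and 5.32% (11.2% in all), and type R-like against sinusoidal-like cells also gave 4 higher and 1 lower, beside 10.2% and 11.6% (21.8% in all). Type R-like and metaphyseal-like cells differed in Hey1 alone, higher in type R-like cells, beside 6.94% of all genes higher and 8.97% lower.

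Without the aged libraries the 16 calls against the other-class mean were the same 16, and 28 of the pairwise differences were called, of which 27 were among the 30. The pairwise calls lost were Notch4 in type R against sinusoidal-like cells (0.94), Dll1 in metaphyseal against sinusoidal-like cells (0.99) and Hes1 in arterial against sinusoidal-like cells (0.96). Of the pairwise calls 7 fell under the limit of 1 in at least 1 other setting, each time with an adjusted p under 0.05. Hey1 in type R against arterial-like cells came down to -0.51 in gated cells, Dll1 in metaphyseal against sinusoidal-like cells to 0.69 without integration, and Dll4 in type R against arterial-like cells to -0.80 without integration and -0.97 without PTH replicate 2. The others were Notch4 and Jag2 in type R against arterial-like cells, Notch4 in type R against sinusoidal-like cells and Hes1 in arterial against sinusoidal-like cells, at 0.86 or more in size.

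The share of cells with at least 1 UMI was compared after thinning each cell to 1000 UMIs, since depth differed between classes. Dll4 was seen in 25.3% of arterial-like, 14.8% of type R-like, 12.6% of metaphyseal-like and 5.70% of sinusoidal-like cells, against 1.04% of haematopoietic-like cells (means over libraries). Hey1 was seen in 20.7 ± 4.40% of arterial-like and 10.0 ± 4.09% of type R-like cells, but in 0.225 ± 0.223% of sinusoidal-like cells, below the 0.728 ± 0.946% of haematopoietic-like cells (SD, n = 10 libraries). Jag1 was seen in 26.9% of arterial-like cells and in 5.14 to 8.09% in the other 3 classes. At this depth a cell without a UMI is not a cell without the gene.

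**Figure D2:**
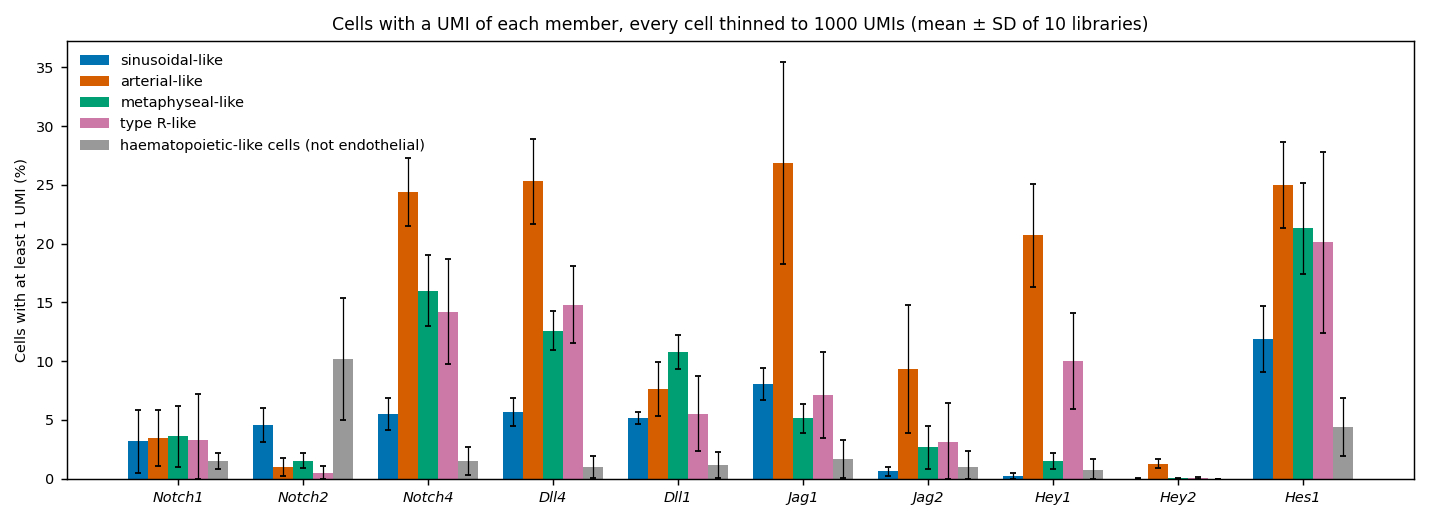
Share of cells with at least 1 UMI of each gene (percent, axis from 0) after thinning every cell to 1000 UMIs, as the mean over libraries with the SD as error bar, for the 4 classes and for haematopoietic-like cells as background. Hey1 and Jag2 in sinusoidal-like cells lay below the mean of haematopoietic-like cells, and Notch2 was the one gene seen more often in haematopoietic-like cells than in each of the 4 classes.

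Cells of the 3 endothelial groups outside the 4 classes gave further values. In 1785 cells led by Ccl21a and Tagln, which the markers left unnamed, Dll1 was seen in 14.8 ± 5.70% of cells, beside 10.8 ± 1.45% of metaphyseal-like cells, while Notch4 (2.90 ± 0.859%) and Dll4 (4.24 ± 2.44%) were seen in few. In 4810 unnamed cells led by Rbp7 and Glul, Hey1 was seen in 4.66 ± 2.49% of cells, between metaphyseal-like (1.54%) and type R-like cells. In 625 proliferating cells Hes1 was seen in 21 ± 6.26% and Notch2 in 3.02 ± 1.98%. On the scale of plain library totals Dll1 was at 149.2 ± 63.71 CPM in the cells led by Ccl21a and Tagln, beside 123.1 ± 11.32 CPM in metaphyseal-like cells, and Hes1 was at 360.2 ± 65.74 CPM in the cells led by Rbp7 and Glul, beside 339.1 ± 55.87 CPM in arterial-like cells (SD, n = 10 libraries). Dll1 in the cells led by Ccl21a and Tagln was at 83.19 and 84.45 CPM in the adult and 265.2 and 242.8 CPM in the alendronate libraries. Metaphyseal-like libraries ran from 107.6 to 146.4 CPM on that scale. Hey2 reached 6.067 CPM in 1 library of the cells led by Ccl21a and Tagln and 3.873 CPM in 1 library of the proliferating cells. No test was made of these groups.

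Genes whose levels ran most like those of each member over the 40 sums were named as a description, with no test. The points share libraries and depth, so that a high correlation holds differences in class and library alike. Notch4 and Dll4 shared their nearest gene, Eogt (r = 0.968 and 0.964), an O-GlcNAc transferase of EGF repeats, and both were near Sox13 (r = 0.947 and 0.945). Efnb2, the arterial ephrin-B2 gene, was near Notch4 (r = 0.960), and Sema3g near Dll4 (r = 0.960). Hey1 was nearest to Sox17 (r = 0.975), an arterial transcription factor gene, and Hey2 to Pcsk5 (r = 0.957). Notch2 was nearest to Arl6ip1 (r = 0.895), Jag1 to Atp13a3 (r = 0.906), Jag2 to Mast4 (r = 0.955), Dll1 to Zyx (r = 0.863), Hes1 to Id1 (r = 0.866) and Notch1 to Arhgef12 (r = 0.905).

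Of 51 other genes of the pathway, 49 were measured and 38 passed the filter on low counts for the class test. Called against the other-class mean were 5 for sinusoidal-like cells (3 higher, 2 lower), 3 for arterial-like (0 higher, 3 lower), 2 for metaphyseal-like (1 higher, 1 lower) and 4 for type R-like cells (2 higher, 2 lower). In each class this is a smaller share than the 16.3, 12.5, 8.72 and 14.1% of all genes called, so that the list does not stand out, and single genes are given as a description. None of the 5 glycosyltransferases tested (Lfng, Mfng, Rfng, Pofut1 and Poglut1, which add sugars to the receptors) was called against the other-class mean. Between pairs Lfng was called lower in arterial-like (-1.08 ± 0.14, adjusted p = 4.61e-08) and type R-like cells (-1.39 ± 0.17, adjusted p = 3.39e-08) than in sinusoidal-like cells, where it was at 188.8 ± 17.33 CPM and highest of the classes in 9 of 10 libraries. Of the 12 genes of the nuclear complex, Maml3, a co-activator, was called, higher in sinusoidal-like cells (1.76 ± 0.10, adjusted p = 7.52e-19) and lower in arterial-like (-1.34 ± 0.17) and type R-like cells (-1.41 ± 0.22). Rbpj itself lay between 21.2 and 27.0 CPM in the mean of every class. Dtx4, a ubiquitin ligase gene, was higher in sinusoidal-like cells (2.23 ± 0.25, adjusted p = 7.01e-11) at a low level of 3.524 to 7.914 CPM. Nrarp, a target that feeds back on the receptor complex, was lower in sinusoidal-like cells (-1.68 ± 0.11, adjusted p = 7.81e-14), where it ran from 57.94 to 83.74 CPM against medians of 213.8 to 256.4 CPM in the other classes. In the cleavage list, Psen2, a gamma-secretase subunit gene, had medians of 139.1 CPM in sinusoidal-like and 32.65 CPM in metaphyseal-like cells (-2.01 ± 0.09, adjusted p = 2.13e-20), and Aph1b was higher in type R-like cells (1.36 ± 0.22, adjusted p = 8.00e-07). Neurl1b was lower in arterial-like cells (-1.78 ± 0.14, adjusted p = 5.25e-16).

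**Figure D3:**
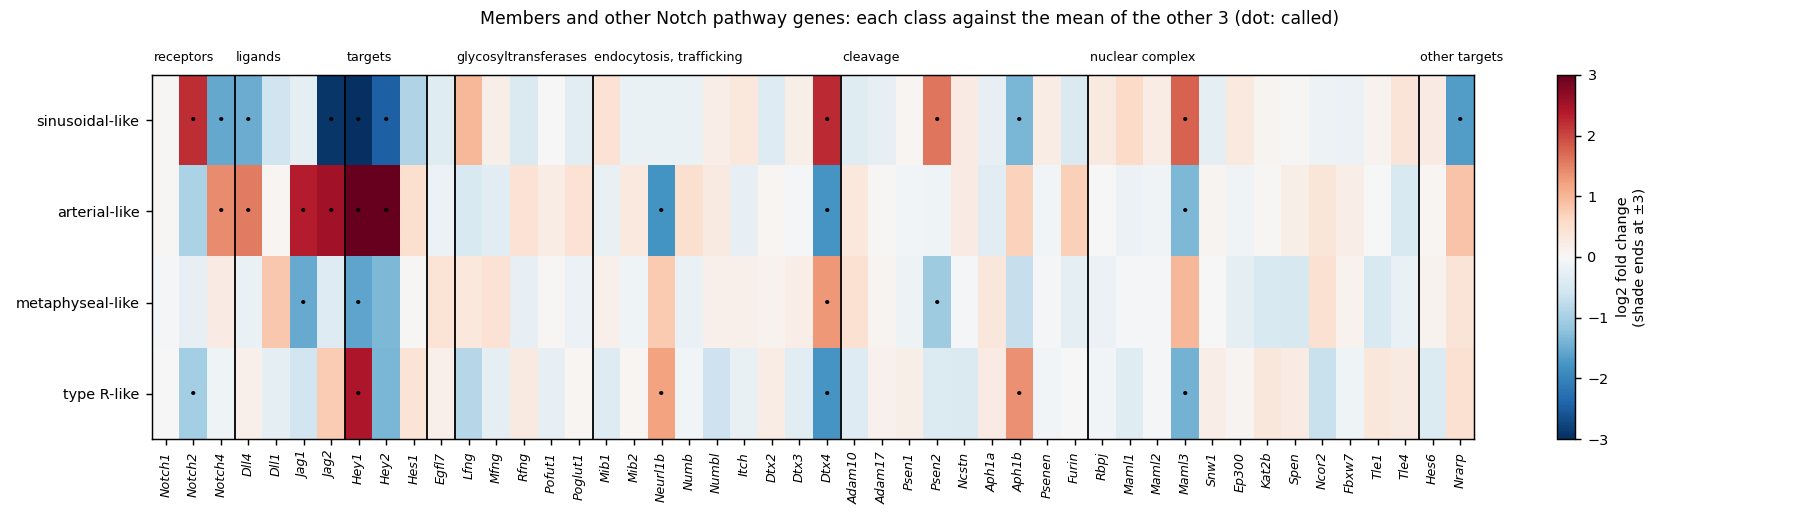
Log2 fold change of the 10 genes and of the 38 other pathway genes tested, each class (rows) against the other-class mean, as a shade from blue (lower) to red (higher) that ends at 3 in size, with a dot where a gene was called. In the arterial-like row 6 of the 10 genes carry a dot, all higher, and 3 of the 38 other genes, all lower. Of all genes 6.47% were called higher and 6.01% lower there (12.5% in all). Among the 6 is Hey2, which passed the filter on low counts only through its arterial-like sums.

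Within each class, groups were compared with a fit over the 10 libraries of the class, and a gene was called at an adjusted p under 0.05 with no limit on fold. Library sizes in that fit were scaled by TMM over the sums of that class alone, so that a fold need not equal the ratio of the printed CPM. In each class 9 of the 10 genes were tested, and Hey2 was tested in arterial-like cells alone, which gives 37 pairs of a gene and a class per comparison. A fall of a summed level cannot be told apart from fewer cells that express the gene.

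At 3 weeks against 12 weeks 13 of the 37 pairs were called, 5 higher and 8 lower. The share of all genes called was 38.1% in sinusoidal-like, 9.77% in arterial-like, 22.9% in metaphyseal-like and 3.61% in type R-like cells, against 5 of 9, 4 of 10, 3 of 9 and 1 of 9 members. The receptors that were called were all lower in juvenile cells. Notch2 in sinusoidal-like cells was at 29.41 and 29.44 CPM at 3 weeks against 54.56 and 75.64 CPM at 12 weeks (-1.12 ± 0.15, adjusted p = 2.71e-04), and in arterial-like cells at 7.132 and 3.713 CPM against 17.02 and 24.14 CPM (-1.87 ± 0.52, adjusted p = 1.16e-02). The juvenile and adult libraries did not overlap in either class, and the share of all genes without such overlap was not counted. Notch2 in haematopoietic-like cells was also lower at 3 weeks (52.53 and 77.89 against 122.2 and 96.43 CPM), and the haematopoietic marker list was at 8.12 to 12.9 CPM in juvenile against 44.0 to 50.1 CPM in adult sinusoidal-like cells and at 8.87 to 9.23 against 43.2 to 47.7 CPM in arterial-like cells, and the part of these cells in the Notch2 differences was not tested. Notch1 was lower in sinusoidal-like (-0.49 ± 0.11, adjusted p = 7.45e-05) and metaphyseal-like cells (-0.62 ± 0.19, adjusted p = 9.07e-03), and Notch4 in metaphyseal-like cells, at 115.3 and 115.2 CPM against 157.1 and 151.5 CPM (-0.41 ± 0.09, adjusted p = 1.75e-04, and -0.11 with an adjusted p of 0.744 after thinning every cell to 1000 UMIs). In type R-like cells Notch2 had no UMI in either juvenile library, which allows levels of up to 25 and 33.1 CPM there, so that no difference was detectable at this depth. The shallow metaphyseal-like cluster held 140 and 197 cells in the juvenile libraries, beside 578 and 486 in the other cluster. In the adult libraries these numbers were 425 and 365 beside 474 and 473. Single libraries carried some of these calls. The arterial-like fall of Notch2 had an adjusted p of 0.054, 0.179 and 0.0876 without juvenile replicate 1, juvenile replicate 2 or adult replicate 2, and the metaphyseal-like fall of Notch1 one of 0.312 and 0.0798 without juvenile replicate 2 or adult replicate 2.

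The Jag1 ligand and the Hey1 target were higher in juvenile arterial-like cells. Jag1 was at 340.5 and 388.0 CPM at 3 weeks and 224.9 and 232.7 CPM at 12 weeks (0.69 ± 0.11, adjusted p = 7.57e-06), while in sinusoidal-like cells it was lower (-0.33 ± 0.08, adjusted p = 5.75e-04). Hey1 was at 288.8 and 339.7 CPM against 203.0 and 216.6 CPM in arterial-like cells (0.60 ± 0.11, adjusted p = 3.54e-05), and the difference was 0.35 after thinning (adjusted p = 0.389). In type R-like cells it was at 224.8 and 121.4 CPM against 73.93 and 90.85 CPM (1.19 ± 0.31, adjusted p = 7.65e-03), from 49 and 35 juvenile cells, and was 0.63 without juvenile replicate 1 (adjusted p = 0.701) and 1.03 without adult replicate 1 (adjusted p = 0.0974). Hes1 was higher in sinusoidal-like (0.40 ± 0.07, adjusted p = 1.24e-04) and arterial-like cells (0.30 ± 0.09, adjusted p = 3.03e-02), the latter with an adjusted p of 0.0853 to 0.362 without any 1 of the juvenile or adult libraries. Dll4 was lower in sinusoidal-like (-0.43 ± 0.08, adjusted p = 2.96e-06) and metaphyseal-like cells (-0.28 ± 0.10, adjusted p = 2.92e-02), where the latter had an adjusted p of 0.327, 0.147 and 0.0877 without juvenile replicate 2, adult replicate 1 or adult replicate 2. Of the other pathway genes 17 of 40 were called in sinusoidal-like cells, 11 higher and 6 lower, which is near the 38.1% of all genes called there (19.2% higher and 18.9% lower), among them Lfng at -0.23 ± 0.05. Nrarp was higher in sinusoidal-like cells (0.31 ± 0.07, adjusted p = 4.50e-04) and lower in arterial-like cells (-0.59 ± 0.12, adjusted p = 1.60e-04).

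**Figure D4:**
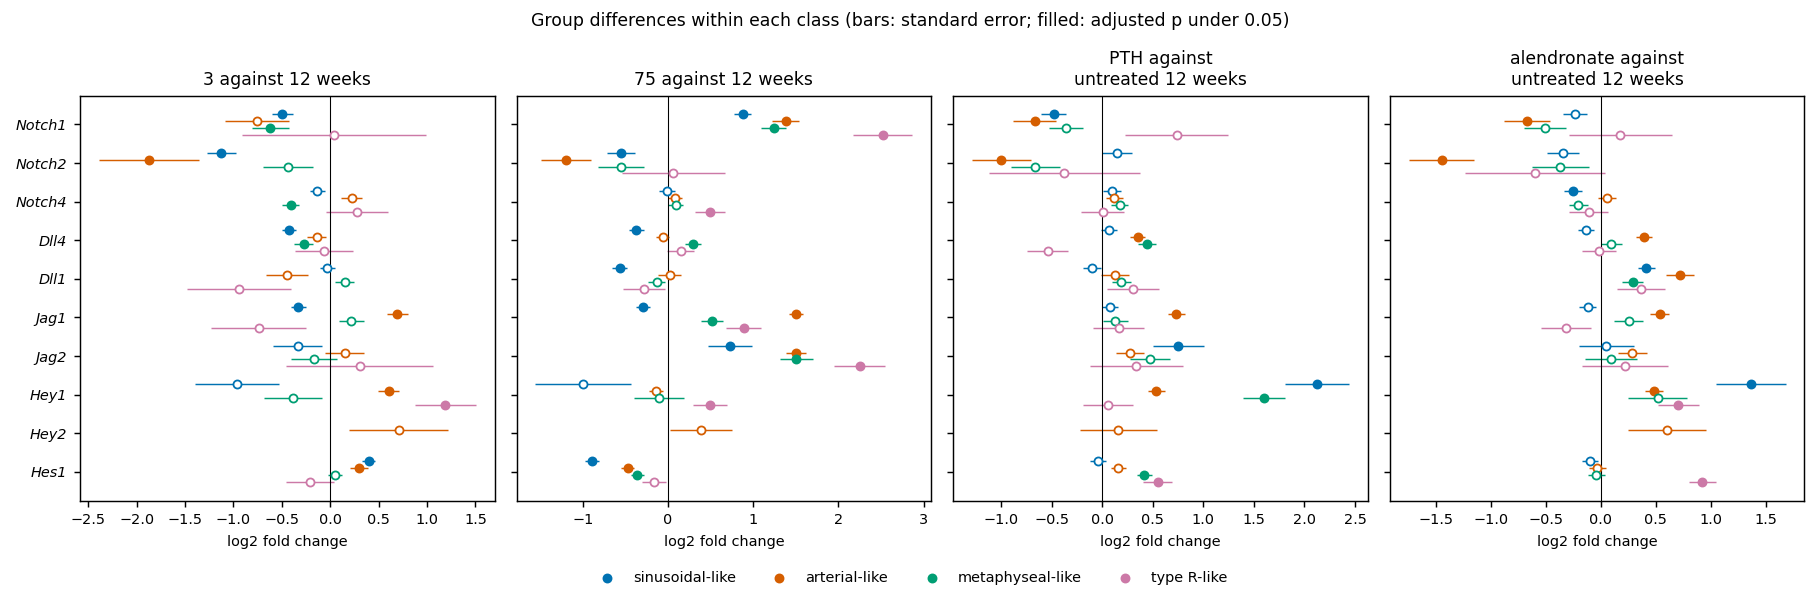
Log2 fold change of each gene between groups within each class, with 1 panel per comparison, the standard error as bar and filled points for an adjusted p under 0.05. Notch1 and Jag2 lie to the right in all 4 classes at 75 weeks, and Hey1 lies furthest to the right in sinusoidal-like and metaphyseal-like cells under PTH, from low levels.

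At 75 weeks against 12 weeks 22 of the 37 pairs were called, 14 higher and 8 lower. A large share of genes moved in this comparison: 66.6% of all genes tested were called in sinusoidal-like, 56% in arterial-like, 63.8% in metaphyseal-like and 47.4% in type R-like cells, so that counts of 7 of 9, 5 of 10, 5 of 9 and 5 of 9 members lie near the background. The differences also ran with exon length over all genes. The median log2 fold change of the lowest quartile of genes by exon length was -0.77, -0.57, -0.77 and -0.65 in sinusoidal-like, arterial-like, metaphyseal-like and type R-like cells, and that of the highest quartile 0.55, 0.60, 0.66 and 0.76. The 75-week values below are given with the merged exon length of the gene, and the part of length in them was not tested.

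Notch1, with 14.2 kb the longest of the 10, rose in all 4 classes. In arterial-like cells it was at 78.48 and 75.91 CPM at 75 weeks and 26.13 and 33.53 CPM at 12 weeks (1.38 ± 0.16, adjusted p = 5.99e-11). In type R-like cells it was at 89.95 and 73.45 CPM against 14.79 and 13.98 CPM (2.52 ± 0.35, adjusted p = 6.01e-12). On plain library totals sinusoidal-like Notch1 was at 58.91 and 68.31 CPM in aged against 25.77 and 26.66 CPM in adult libraries. The rises in sinusoidal-like and metaphyseal-like cells were 0.87 ± 0.10 and 1.24 ± 0.15 (adjusted p = 7.00e-12 and 5.73e-12), the latter 0.53 without integration (adjusted p = 0.38). Without integration aged cells largely formed clusters of their own. The metaphyseal-like clusters then held 11 and 22 and 21 and 16 aged cells (replicates 1 and 2), so that far fewer cells were compared. Notch2, at 10.8 kb, fell in sinusoidal-like cells (-0.55 ± 0.17, adjusted p = 1.48e-02) and arterial-like cells (-1.20 ± 0.29, adjusted p = 3.91e-04). On plain library totals sinusoidal-like Notch2 was at 53.23 and 53.26 CPM in aged against 49.54 and 69.07 CPM in adult libraries, which overlap. The sinusoidal-like value of Notch2 was -0.56 without either aged library (adjusted p = 0.117 without replicate 1 and 0.111 without replicate 2), and -0.55 ± 0.20 (adjusted p = 0.0567) with the replicate number as a block. In arterial-like cells Notch2 was -0.21 with an adjusted p of 0.636 when cells were gated on marker UMIs. Notch4, at 8.06 kb, was called in type R-like cells (0.49 ± 0.17, adjusted p = 1.22e-02) and lay between -0.01 and 0.09 in the other classes, but at -0.30 in arterial-like cells without integration (adjusted p = 0.0005). The type R-like value was 0.24 without adult replicate 2 (adjusted p = 0.401) and 0.42 without aged replicate 1 (adjusted p = 0.0886).

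The Jagged ligands held the largest rises among the ligands. Jag1, at 5.83 kb, was at 586.4 and 703.1 CPM in aged and 224.9 and 232.7 CPM in adult arterial-like cells (1.5 ± 0.08, adjusted p = 1.24e-20), rose in type R-like (0.89 ± 0.20, adjusted p = 5.25e-05) and metaphyseal-like cells (0.52 ± 0.13, adjusted p = 2.88e-04) and fell in sinusoidal-like cells (-0.29 ± 0.08, adjusted p = 2.63e-03, and -0.17 with an adjusted p of 0.112 without aged replicate 1). After thinning every cell to 1000 UMIs the metaphyseal-like difference of Jag1 was -0.11 ± 0.27. On plain library totals sinusoidal-like Jag1 was at 90.18 and 108.7 CPM in aged against 89.96 and 94.18 CPM in adult libraries, which is not lower. Jag2, at 6.97 kb, was higher in all 4 classes, with the rise in type R-like cells from 19.01 and 20.97 CPM to 97.45 and 89.33 CPM (2.25 ± 0.30, adjusted p = 2.89e-12). In arterial-like cells it rose from 69.89 and 57.67 CPM to 187.3 and 174.1 CPM (1.5 ± 0.12, adjusted p = 3.08e-16). The arterial marker list summed to 198.0 to 220.9 CPM in aged and 88.3 to 93.5 CPM in adult sinusoidal-like cells, but its members did not move together. Fbln5 was at 194.6 and 179.8 CPM in aged against 56.87 and 60.94 CPM in adult cells, while Gja4 (4.134 and 2.788 against 10.75 and 13.07 CPM) and Vegfc (3.359 and 4.182 against 8.749 and 7.102 CPM) were lower in both aged libraries. Jag2 in haematopoietic-like cells was at 7.45 and 6.6 CPM in aged against 2.195 and 4.485 CPM in adult libraries, beside 9.819 and 6.971 against 3.899 and 3.809 CPM in sinusoidal-like cells on the same scale of plain totals. The part of the arterial markers and of this background in the sinusoidal-like difference of Jag2 (0.73 ± 0.26, adjusted p = 1.14e-02, and 0.44 with an adjusted p of 0.286 without aged replicate 1) was not tested. The Delta-like ligands moved less. On plain library totals sinusoidal-like Dll4 was at 61.75 and 66.08 CPM in aged against 60.76 and 64.54 CPM in adult libraries, which is not lower. Sinusoidal-like Dll1 on that scale was at 46.25 and 48.24 against 53.63 and 52.39 CPM. The values that follow are on the TMM scale, and the part of the scaling in them was not tested. Dll4, at 3.85 kb, was lower in sinusoidal-like (-0.37 ± 0.09, adjusted p = 9.81e-05) and higher in metaphyseal-like cells (0.29 ± 0.09, adjusted p = 4.89e-03, and 0.0574 and 0.0862 without adult replicate 2 or aged replicate 2), and Dll1, at 4.22 kb, was lower in sinusoidal-like cells (-0.57 ± 0.09, adjusted p = 1.22e-07, and -0.13 with an adjusted p of 0.284 in gated cells).

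Of the targets, Hes1, with 2.04 kb the shortest of the 10, fell in 3 classes: from 176.6 and 165.0 CPM to 108.9 and 89.87 CPM in sinusoidal-like cells (-0.89 ± 0.08, adjusted p = 1.89e-08), and by 0.47 in arterial-like and 0.36 in metaphyseal-like cells on the log2 scale (adjusted p = 7.22e-07 and 3.74e-05). On plain library totals sinusoidal-like Hes1 was at 121.2 and 99.54 CPM in aged against 160.3 and 150.7 CPM in adult libraries, a smaller fall. The part of the scaling in it was not tested. Hey1, at 3.27 kb, was called in type R-like cells alone (0.50 ± 0.20, adjusted p = 3.11e-02, and 0.344 and 0.211 without adult replicate 1 or aged replicate 2), where it was -0.27 ± 0.25 in cells gated on Timp4 and Aqp7 UMIs. In arterial-like cells it was at 176.9 and 202.0 CPM against 203.0 and 216.6 CPM (-0.14 ± 0.09, adjusted p = 0.167). Of the 12 genes of the nuclear complex, 10, 8, 10 and 7 were called higher at 75 weeks in sinusoidal-like, arterial-like, metaphyseal-like and type R-like cells, where 33.5, 27.6, 31.5 and 24.1% of all genes were called higher, and 1, Maml2, was called lower in each. Spen, at 14.1 kb, was among those higher in all 4 (1.54 to 1.89). Nrarp, at 2.58 kb, fell in all 4 (-0.28 to -0.94), and so did Psenen, a small gamma-secretase subunit gene of 1.27 kb (-1.0 to -1.90). Lfng, at 2.5 kb, fell in all 4 classes as well, most in metaphyseal-like cells (-1.43 ± 0.09, adjusted p = 1.86e-24).

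**Figure D5:**
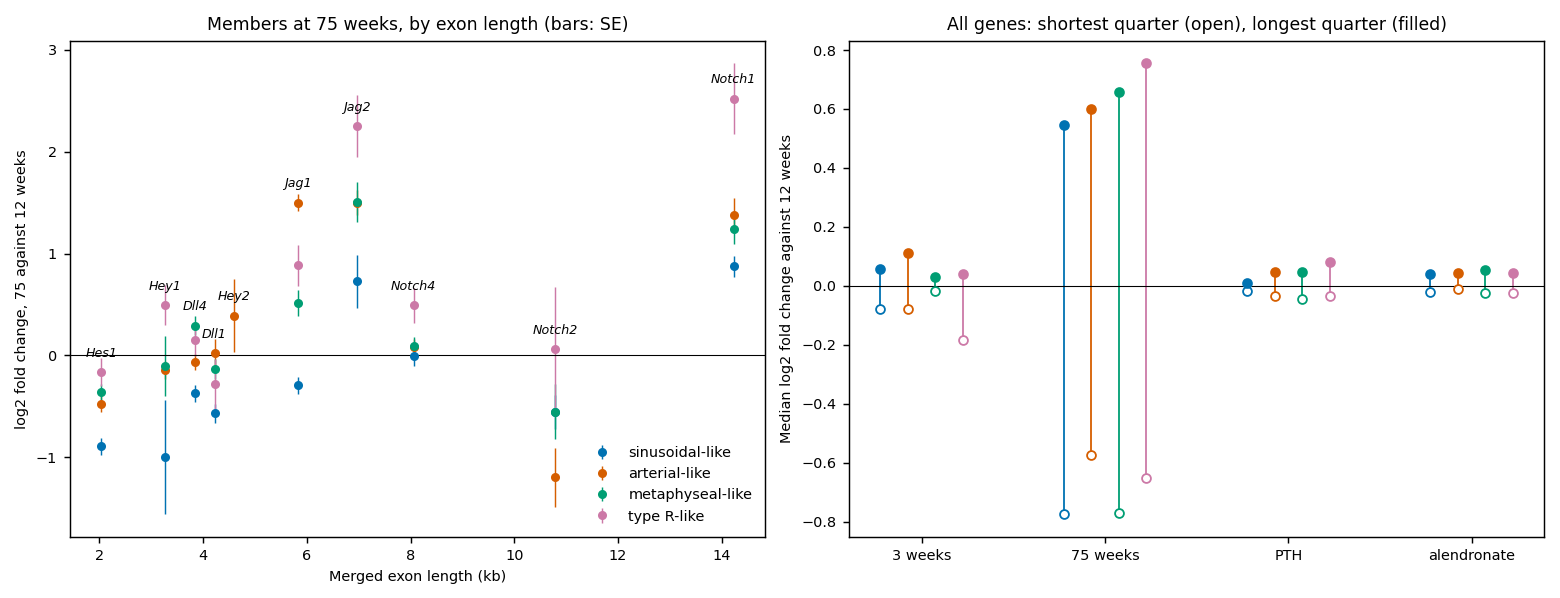
Left, log2 fold change of each of the 10 genes at 75 against 12 weeks (error bar, standard error) by merged exon length in kb, with 1 colour per class. Right, median log2 fold change of all genes in the lowest (open) and the highest quartile (filled) of exon length for the 4 comparisons, where the 75-week comparison spans from -0.77 to 0.76 and the others lie near 0.

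Under PTH 12 of the 37 pairs were called against untreated 12-week libraries, 9 higher and 3 lower, where 9.99% of all genes were called in sinusoidal-like, 5.70% in arterial-like, 11.3% in metaphyseal-like and 3.18% in type R-like cells. Arterial-like cells had 5 of 10 members called. Dll4 rose there, from 284.4 and 274.9 CPM to 348.9 and 361.5 CPM (0.35 ± 0.07, adjusted p = 9.63e-04), and Jag1 from 224.9 and 232.7 CPM to 357.1 and 394.3 CPM (0.73 ± 0.09, adjusted p = 2.38e-08). Hey1 rose from 203.0 and 216.6 CPM to 293.1 and 309.0 CPM (0.53 ± 0.08, adjusted p = 6.32e-06). In none of these 3 did the treated and untreated libraries overlap, and the share of all genes without such overlap was not counted. After thinning every cell to 1000 UMIs Jag1 was still called, while Dll4 was 0.33 (adjusted p = 0.199) and Hey1 0.35 (adjusted p = 0.231). The receptors Notch1 (-0.67 ± 0.21, adjusted p = 4.71e-02) and Notch2 (-1.0 ± 0.29, adjusted p = 2.46e-02) fell, with calls that were lost without single libraries. Without adult replicate 2 the adjusted p was 0.477 for Notch1 and 0.407 for Notch2, without PTH replicate 2 it was 0.177 and 0.63, and without adult replicate 1, PTH replicate 1 or either aged library it was 0.0576 to 0.121 for Notch1. In sinusoidal-like cells Notch1 was lower (-0.48 ± 0.12, adjusted p = 4.36e-03, and 0.106 without PTH replicate 1).

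In metaphyseal-like cells PTH went with higher Dll4, at 155.6 and 147.2 CPM against 111.3 and 108.9 CPM (0.44 ± 0.09, adjusted p = 1.16e-04), higher Hes1, at 324.8 and 365.5 CPM against 264.7 and 252.2 CPM (0.41 ± 0.07, adjusted p = 6.55e-06), and higher Hey1, at 31.36 and 29.31 CPM against 12.62 and 6.667 CPM (1.60 ± 0.21, adjusted p = 3.77e-09). In this class the shallow cluster held 163 and 1166 cells in the PTH libraries, beside 385 and 1043 in the other cluster. In the adult libraries these numbers were 425 and 365 beside 474 and 473. In gated cells Dll4 was 0.26 (adjusted p = 0.0617) and Hes1 0.22 (adjusted p = 0.0994), and after thinning both were 0.29 (adjusted p = 0.28 and 0.131), while Hey1 was still called (1.29 ± 0.36, adjusted p = 0.0191). Hes1 was called in type R-like cells too (0.55 ± 0.14, adjusted p = 7.71e-03), where replicate 1, with 40 cells, was at 211.2 CPM and replicate 2 at 420.0 CPM, so that the groups overlapped. It was -0.22 without PTH replicate 2 (adjusted p = 0.818) and 0.39 without adult replicate 2 (adjusted p = 0.363). In sinusoidal-like cells Hey1 was at 6.968 and 7.035 CPM against 1.361 and 1.804 CPM (2.13 ± 0.31, adjusted p = 1.81e-07). Haematopoietic-like cells of the same libraries held 13.9 and 5.56 CPM of Hey1 against 1.46 and 0.748 CPM, and the arterial marker list in sinusoidal-like cells was at 153.6 to 176.1 CPM under PTH against 88.3 to 93.5 CPM in the adult, with all 6 of its genes above both adult libraries and Gja4 at 51.07 and 34.19 against 10.75 and 13.07 CPM, and their part in the sinusoidal-like difference in Hey1 was not tested. In metaphyseal-like cells the adult values of Hey1 (12.62 and 6.667 CPM) lay within the 0 to 13.9 CPM of haematopoietic-like cells over all libraries. The part of this background and of arterial markers in the metaphyseal-like difference in Hey1 was not tested. Jag2 in sinusoidal-like cells, at 7.335 and 7.178 CPM against 4.294 and 4.171 CPM, was called at 0.75 ± 0.25 (adjusted p = 4.40e-02), with an adjusted p of 0.116 to 0.335 without any 1 of the adult or PTH libraries, beside 4.635 and 10.19 against 2.195 and 4.485 CPM in haematopoietic-like cells, and the part of this background and of the arterial markers in it was not tested. Of the other pathway genes, Psenen fell in sinusoidal-like, arterial-like and metaphyseal-like cells (-0.28 to -0.46) and Neurl1b rose in metaphyseal-like cells (0.62 ± 0.15, adjusted p = 2.23e-03). Nrarp was lower in type R-like cells (-0.55 ± 0.17, adjusted p = 3.49e-02) and higher in the sums over all endothelial cells (0.29 ± 0.04, adjusted p = 2.65e-06).

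Under alendronate 12 of the 37 pairs were called, 9 higher and 3 lower, where 19.0% of all genes were called in sinusoidal-like, 5.40% in arterial-like, 10.9% in metaphyseal-like and 3.00% in type R-like cells. Arterial-like cells again had the most members called, 6 of 10. Dll1 rose from 68.68 and 77.79 CPM to 124.0 and 117.0 CPM (0.72 ± 0.13, adjusted p = 8.73e-05), Dll4 to 370.9 and 366.1 CPM (0.39 ± 0.07, adjusted p = 1.36e-04), Jag1 to 318.8 and 344.9 CPM (0.53 ± 0.09, adjusted p = 2.28e-05) and Hey1 to 295.9 and 292.2 CPM (0.49 ± 0.08, adjusted p = 3.29e-05). All treated libraries lay above both adult ones, and the share of all genes that did so was not counted. After thinning Hey1 was 0.32 (adjusted p = 0.27). Notch2 fell from 17.02 and 24.14 CPM to 7.607 and 7.314 CPM (-1.45 ± 0.30, adjusted p = 7.61e-04) and Notch1 by 0.67 on the log2 scale (adjusted p = 4.09e-02). Notch2 in haematopoietic-like cells was at 75.42 and 78.42 CPM under alendronate against 122.2 and 96.43 CPM in the adult, the haematopoietic marker list in arterial-like cells was at 73.71 to 75.52 against 43.22 to 47.66 CPM, and the part of either was not tested. Without adult replicate 2 the Notch2 value was -1.19 (adjusted p = 0.0938), in gated cells it was -0.66 (adjusted p = 0.398), and Notch1 had an adjusted p of 0.0546 to 0.47 without any 1 of the adult, aged or alendronate libraries. The Notch2 and Notch1 values in arterial-like cells rest on the same adult libraries in all comparisons, and those libraries were the highest of the 12-week groups for both genes.

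Dll1 was also higher in sinusoidal-like (0.41 ± 0.08, adjusted p = 1.97e-05) and metaphyseal-like cells (0.29 ± 0.10, adjusted p = 3.43e-02) under alendronate, the latter with an adjusted p of 0.277, 0.0673 and 0.614 without adult replicate 1, adult replicate 2 or alendronate replicate 1. Notch4 was lower in sinusoidal-like cells (-0.25 ± 0.08, adjusted p = 2.38e-02), with an adjusted p of 0.313 and 0.348 without adult replicate 1 or alendronate replicate 1. In type R-like cells, which numbered 661 and 658 here, Hes1 rose from 278.8 and 221.3 CPM to 529.9 and 444.1 CPM (0.92 ± 0.12, adjusted p = 2.41e-11) and Hey1 from 73.93 and 90.85 CPM to 138.2 and 135.6 CPM (0.70 ± 0.19, adjusted p = 1.07e-02). The Hey1 value was 0.56 to 0.86 without any 1 of the adult or alendronate libraries, with an adjusted p of 0.0559 to 0.409. Nrarp rose in arterial-like cells (0.69 ± 0.07, adjusted p = 3.53e-10), and Lfng fell in metaphyseal-like (-0.73 ± 0.09, adjusted p = 3.24e-10), arterial-like (-0.48 ± 0.12, adjusted p = 5.16e-03) and sinusoidal-like cells (-0.34 ± 0.05, adjusted p = 3.37e-08). Hey1 in sinusoidal-like cells, at 4.206 and 3.916 CPM against 1.361 and 1.804 CPM, passed the test (1.36 ± 0.32, adjusted p = 8.26e-04). On plain library totals haematopoietic-like cells held 3.54 and 2.55 CPM under alendronate, beside 3.749 and 3.509 CPM in these sinusoidal-like cells. The arterial marker list was at 110.4 to 117.6 CPM in these cells against 88.3 to 93.5 CPM in the adult, with 5 of its 6 genes above both adult libraries (Gja4 at 14.34 and 16.64 against 10.75 and 13.07 CPM), and the part of either in the Hey1 difference was not tested.

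PTH and alendronate share their controls, so that their values are set side by side without a test. In arterial-like cells Dll4 differed from the adult by 0.35 ± 0.07 under PTH and 0.39 ± 0.07 under alendronate, Hey1 by 0.53 ± 0.08 and 0.49 ± 0.08, and Jag1 by 0.73 ± 0.09 and 0.53 ± 0.09. Dll1 differed by 0.12 ± 0.14 under PTH and 0.72 ± 0.13 under alendronate.

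A call in one class and not in another does not show that the classes differ, so the difference of the group effect between the 4 classes was tested in one fit. It was called for Jag1 in all 4 comparisons, with adjusted p = 1.11e-11 at 3 weeks, 3.09e-32 at 75 weeks, 2.12e-06 under PTH and 9.01e-07 under alendronate, and its arterial-like difference was the highest of the classes in each. Dll4 was called at 75 weeks and under both treatments, and Hey1 at 3 weeks and under PTH. The share of all genes called in this test was 11.5% at 3 weeks, 23.4% at 75 weeks, 5.44% under PTH and 3.92% under alendronate, against 3, 3, 4 and 3 of the 10 members. The Jag1 call under PTH was lost without PTH replicate 2 (adjusted p = 0.438), the Hey1 call at 3 weeks without adult replicate 1 (adjusted p = 0.0606), and the Dll4 call under alendronate without adult replicate 2 or alendronate replicate 1 (adjusted p = 0.0852 and 0.0521). Dll1, Jag2 and Hey2 were called in none of the 4 comparisons.

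Sums over all endothelial cells of a library hold both the level within classes and the makeup of the sample, and the part of each was not tested. Arterial-like cells were 3.83 ± 0.0555% of endothelial cells in the juvenile, 9.51 ± 0.0213% in the adult, 23.6 ± 0.875% in the aged, 14.1 ± 1.62% in the PTH and 15.3 ± 0.283% in the alendronate libraries (SD, n = 2), and sinusoidal-like cells 65.7, 55.7, 23.7, 31.9 and 41.6%. Hey1 over all endothelial cells was lowest in the juvenile and highest in the PTH libraries, at 17.29 and 21.41 CPM in the juvenile, 29.31 and 29.24 CPM in the adult, 47.09 and 48.70 CPM in the aged, 72.31 and 78.27 CPM in the PTH and 65.40 and 61.75 CPM in the alendronate libraries. At 3 weeks it was lower over all endothelial cells (-0.60 ± 0.08, adjusted p = 2.14e-07) while it was higher within arterial-like and type R-like cells. Hes1 fell by 0.44 on the log2 scale over all endothelial cells at 75 weeks (adjusted p = 7.43e-07), from 236.5 and 223.4 CPM to 174.9 and 164.6 CPM, with a higher share of arterial-like cells in those libraries, and rose under PTH (0.41 ± 0.05, adjusted p = 6.82e-06). Of the 10 genes 8, 10, 9 and 7 were called at 3 weeks, 75 weeks, under PTH and under alendronate, where 43.5, 73.9, 29.7 and 28.1% of all genes were called, so that a large share of all genes moved in these sums as well.

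Reads of some members may come from overlapping genes, since whether strand was used in counting is not given in the sources used here. In GRCm38, Notch1 (chr2:26457903-26516663, minus strand) shares 1068 exonic bases with 0610009E02Rik and 414 with Gm13568, Dll4 (chr2:119325784-119335962, plus strand) 214 with Gm14207, and Dll1 (chr17:15367354-15376872, minus strand) 867 with A930024N18Rik, all on the opposite strand. Notch2 (chr3:98013527-98150361, plus strand) shares 541 with Gm42820 on its own strand. Hey1 (chr3:8663359-8667256, minus strand), Hey2 (chr10:30832359-30842801, minus strand), Hes1 (chr16:30064384-30067796, plus strand), Jag1 (chr2:137081456-137116644, minus strand), Jag2 (chr12:112907819-112929776, minus strand) and Notch4 (chr17:34564268-34588503, plus strand) share none.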

How the data were processed

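UMI counts per gene and cell of 10 libraries were used, as deposited by the authors without normalization. By the submitters' processing notes and the methods, the authors assigned barcodes with UMI-tools 1.1.2, aligned reads to mm10 with STAR 2.7.10a and counted them on genes with featureCounts 2.0.3. The annotation release, the strand setting and which library used which version of the 10x chemistry are not given in the sources used here. Groups and replicate numbers came from the sample labels.

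The 10 genes, the pathway lists and the markers were chosen with earlier results of these data known. Cells with 500 to 6000 genes and under 25% mitochondrial UMIs and genes seen in at least 3 cells were kept. All libraries were integrated by anchors in Seurat 5.3.0 with 2000 variable features that excluded the 10 genes, the pathway lists and cell-cycle genes, 30 principal components and a resolution of 0.5. Clusters were named for the marker list that led in them, with at least 3 markers up by over 0.5 and a mean score and lead of at least 0.3 (log2 scale, pseudocount of 10 CPM), and were left unnamed otherwise. Doublets were kept in the reported values, and removing the highest scrublet scores was an alternative. For each library the UMIs of a class with at least 20 cells were added up and tested with edgeR 4.0.16 in R 4.3.3 (TMM, filterByExpr, quasi-likelihood), with Benjamini-Hochberg adjustment over all genes tested. All p-values in the text are two-sided or, for the difference between classes, from an F test. DESeq2 1.42.0 was an alternative. Same-numbered replicates did not deviate together (r = -0.0169 to 0.0793 over 10 comparisons), so that the numbers were not taken as pairs.

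Genes named from the pathway lists are those called with the largest log2 fold change, up to 3 per contrast, with values of a gene so named also given in other classes, and Rbpj, added for its role after its values were seen. On simulated data with known changes, 98.5% of genes changed by 1 on the log2 scale were called for arterial-like cells against the others (fold limit not applied), and 88.7, 43.9, 68.2 and 14.8% within sinusoidal-like, arterial-like, metaphyseal-like and type R-like cells for 3 against 12 weeks. At a change of 0.5 these shares were 76.9% and 55.4, 9.2, 41.3 and 1.6%. False calls made up 6.7% of the calls between classes and 7.7, 7.7, 5 and 2.2% within the classes. Over all endothelial cells they made up 10.4%. In the simulation each gene had the same mean in all sums, apart from a small set of changed genes, and the sums were drawn independently. The measured data held many more differences between classes and groups, so that these shares may not hold for the reported calls. Of the comparisons between groups only 3 against 12 weeks was simulated. Shares of cells were computed after thinning each cell to 1000 UMIs. Limits for a count of 0 use 3 counts and hold no error beyond counting. Python 3.11.15 with scanpy 1.11.5 and pandas 2.3.3 was used for the rest.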

Additional observations from a re-analysis of the deposited data

Results flagged for a closer look

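The results below are group differences that were not alike in the 4 classes, by the F test of the class-by-group terms in edgeR with Benjamini-Hochberg adjustment over 11137 genes. Each is the result of a test over libraries of which 2 form a group.

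Jag1 was called in all 4 comparisons. At 3 weeks (adjusted p = 1.11e-11) its log2 fold change was 0.69 in arterial-like, 0.22 in metaphyseal-like, -0.33 in sinusoidal-like and -0.74 in type R-like cells. At 75 weeks (adjusted p = 3.09e-32) it was 1.5, 0.52, -0.29 and 0.89 in the same order, under PTH (adjusted p = 2.12e-06) 0.73, 0.13, 0.07 and 0.16, and under alendronate (adjusted p = 9.01e-07) 0.53, 0.25, -0.12 and -0.32. The arterial-like libraries of the group lay above both adult ones each time, and the share of all genes that did so was not counted. The call under PTH was lost without PTH replicate 2.

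Dll4 was called in 3 comparisons. At 75 weeks (adjusted p = 3.98e-04) it was -0.37 in sinusoidal-like and 0.29 in metaphyseal-like cells. On plain library totals its sinusoidal-like levels were not lower, at 61.75 and 66.08 CPM in aged against 60.76 and 64.54 CPM in adult libraries. Under PTH (adjusted p = 2.66e-04) it was 0.35 in arterial-like, 0.44 in metaphyseal-like, 0.06 in sinusoidal-like and -0.54 in type R-like cells, and under alendronate (adjusted p = 1.13e-03) 0.39, 0.10, -0.14 and -0.02. The call under alendronate was lost without adult replicate 2 or alendronate replicate 1.

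Hey1 was called at 3 weeks (adjusted p = 4.43e-04), with 0.60 in arterial-like and 1.19 in type R-like cells and -0.96 and -0.39 in sinusoidal-like and metaphyseal-like cells, and under PTH (adjusted p = 5.07e-08), with 2.13 in sinusoidal-like, 1.60 in metaphyseal-like, 0.53 in arterial-like and 0.06 in type R-like cells. Its sinusoidal-like values lay within the range of haematopoietic-like cells, 0 to 13.9 CPM. The call at 3 weeks was lost without adult replicate 1.

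The receptors were called in 1 comparison each. Notch4 at 3 weeks (adjusted p = 1.15e-03, and 0.0699 without juvenile replicate 2) was -0.41 in metaphyseal-like and 0.22 in arterial-like cells. Notch1 at 75 weeks (adjusted p = 4.95e-03, and 0.133, 0.0634 and 0.15 without adult replicate 1, adult replicate 2 or aged replicate 1) ran from 0.87 in sinusoidal-like to 2.52 in type R-like cells. Notch2 under PTH (adjusted p = 1.75e-03, and 0.155 and 0.411 without adult replicate 2 or PTH replicate 2) was -1.0 in arterial-like and 0.15 in sinusoidal-like cells.

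Hes1 under alendronate (adjusted p = 4.02e-02) was 0.92 in type R-like cells and -0.10 to -0.03 in the other classes. It was not called without any 1 of 7 libraries (both juvenile, both adult, both aged or alendronate replicate 1), with an adjusted p of 0.0614 to 0.485.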

How the results depend on the processing

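Each class against the average of the remaining classes gave 16 calls as reported, and 15 to 17 with 1 library left out or under the other settings. Between pairs of classes 30 calls became 29 to 31 with 1 library left out and 27 to 31 under the other settings. Within classes, leaving out 1 library moved the 13 calls at 3 weeks to 9 to 13, the 22 at 75 weeks to 19 to 23, the 12 under PTH to 8 to 13 and the 12 under alendronate to 8 to 12. The 13 calls of a difference between classes moved to 9 to 18, and the 34 over all endothelial cells to 31 to 35.

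Thinning every cell to 1000 UMIs gave 5 calls at 3 weeks, 4 under PTH, 4 under alendronate and 8 for the difference between classes, of which 5, 2, 4 and 7 were among the reported calls. The share of all genes called under each of these settings is not given here, so that the counts have no background beside them. Cells gated on marker UMIs in place of clusters gave 7 under PTH, and the DESeq2 Wald test, whose adjusted p is NA for 1 and 4 of the 37 pairs, gave 7 under PTH and 7 under alendronate, of which the cause was not tested. With the replicate number as a block, 13, 21, 12 and 12 calls were made at 3 weeks, 75 weeks, under PTH and under alendronate, and 33 over all endothelial cells.

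Direction changed in 6 values, and the cause was not tested. Without integration, where aged cells largely formed clusters of their own, Notch4 at 75 weeks in arterial-like cells was -0.30, Hey2 in the same cells -0.92, and Hey2 in type R against metaphyseal-like cells 2.22. Thinned to 1000 UMIs, Jag1 at 75 weeks in metaphyseal-like cells was -0.11. In gated cells Hey1 at 75 weeks in type R-like cells was -0.27, and Hes1 under PTH in type R-like cells was -0.22 without PTH replicate 2 and up to 0.73 without other libraries. The classes were also compared with the clusters of shallow cells left out and, for class tests, without the aged libraries, both chosen after seeing the data, and gave 16 calls each for each class against the remaining ones. The replicate numbers did not pair the samples.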
